A study of Rattus norvegicus with 12 samples.

Results

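The enzymes described here attach glutathione, glucuronic acid or sulfate to drugs, pollutants, hormones and bile constituents: the glutathione S-transferases (Gst and Mgst genes), the UDP-glucuronosyltransferases (Ugt genes) and the cytosolic sulfotransferases (Sult genes). They were chosen by symbol alone, as every gene of the Gsta, Gstk, Gstm, Gsto, Gstp, Gstt, Mgst, Ugt and Sult series that a probe's RefSeq accession named, which gave 53 genes of the 16667 named on the array. The 53 were 23 soluble glutathione transferases, 3 microsomal glutathione transferases, 14 glucuronosyltransferases and 13 sulfotransferases, read by 75 probes. RNA came from the livers of adult male Wistar rats. One group of 6 rats received a low protein diet with 5% casein. The other group of 6 rats received a control diet with 14% casein. The diets were isocaloric and were given for 4 weeks, and the labels name no other treatment. Each rat's total RNA was labelled with Cy3 and hybridised to its own single-colour Agilent array, so each diet had 6 rats numbered separately in the labels.

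Glutathione transferases join the thiol of glutathione to electrophiles such as epoxides, quinones and lipid aldehydes, and the products leave the cell for conversion to mercapturates. Glucuronosyltransferases sit in the endoplasmic reticulum membrane and take glucuronic acid from UDP-glucuronic acid, while sulfotransferases work in the cytosol and take sulfate from the donor PAPS. The liver is the main site of all these reactions, and many of the genes are known targets of the xenobiotic sensors NRF2, AHR, CAR and PXR.

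Of these genes 6 changed with the diet, in both directions. Testing was limited to probes that stood well above background in 5 or 6 arrays of either diet, and 46 of the 53 genes had one. Values are the scanner's processed intensity on a linear scale, brought to a common 75th percentile. They are called scaled intensity here and compare the same probe between rats, not one gene with another. Differences are log2, low protein minus control, with limma's standard error and an adjusted p over all 21858 features tested. A feature is 1 probe for each gene symbol (11389 of them) or, where no symbol matched, for each accession in the file (10469), and all are called genes below. Of the 46 genes 6 passed an adjusted p of 0.05, which is 13.0%, against 6.53% of all genes tested. Gsta3, Ugt2a3 and Ugt1a6 were higher in low protein livers, where 3.48% of all genes were higher. Sult4a1, Gstm7 and Gstk1 were lower in low protein livers, where 3.05% of all genes were lower. Sult4a1 entered the test only through its control arrays and is dim in low protein livers, so its call is not support for a change in the family. With all 12 arrays required to be well above background, 5 of 43 members passed, against 7.43% of all genes. The median difference of the 46 genes was -0.02, against -0.03 for all genes, and 38 of the 46 differed by under 0.5 in either direction, a size that 92% of all genes stayed under. At an unadjusted p under 0.05 there were 17 of the 46, against 21.6% of all genes. Among the 17, Sult4a1 and Sult2b1 entered the test only through the diet in which they were higher. Neither is support for a change in the family. The plot of differences by family shows each member's value, with Gsta3 far to the right and Sult4a1 far to the left.

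**Figure D1:**
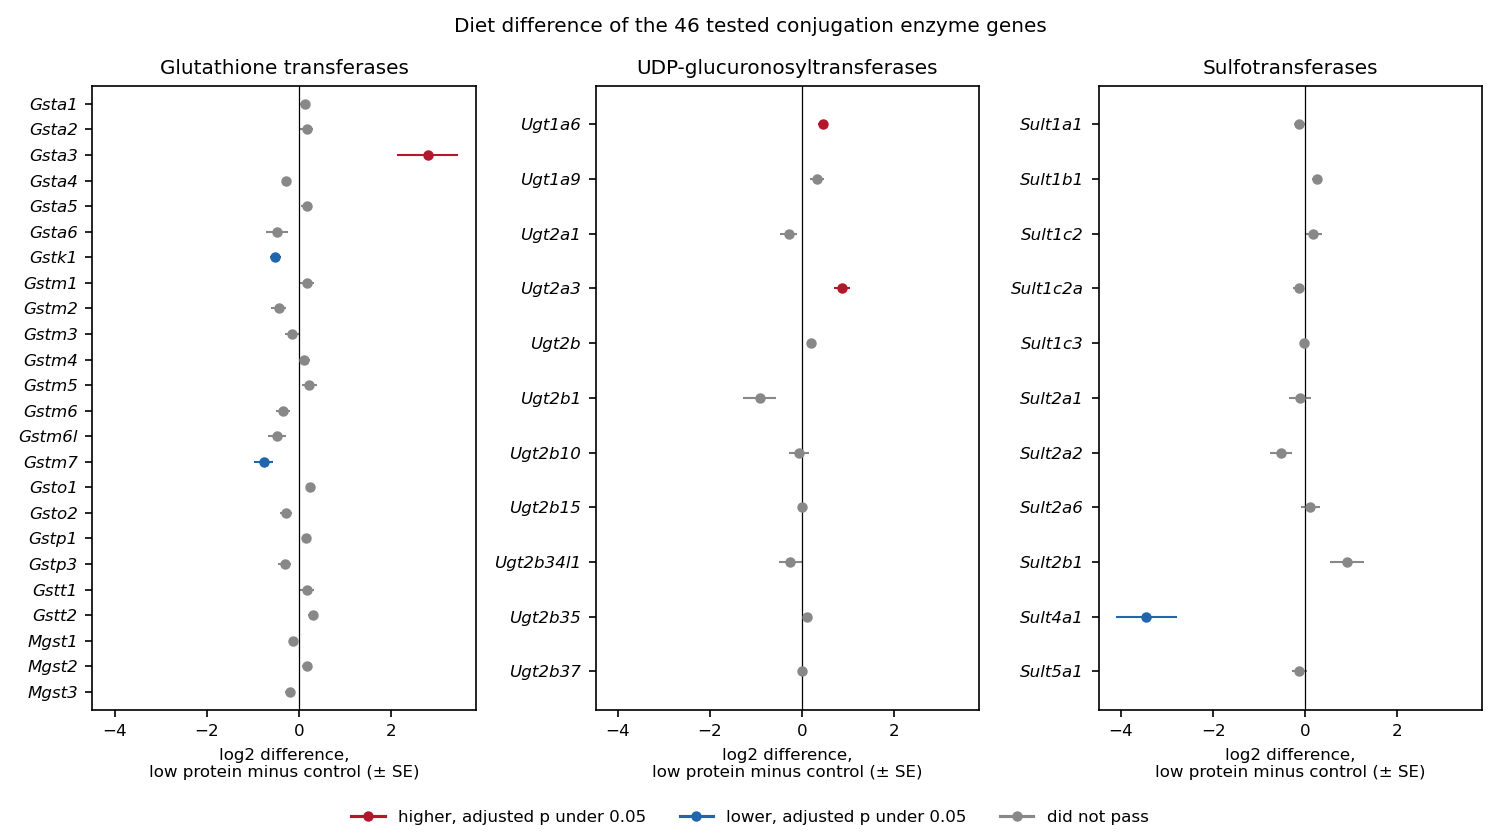
Log2 difference, low protein minus control, of the 46 tested genes in 3 panels for the glutathione transferases (Gst and Mgst), glucuronosyltransferases and sulfotransferases, as points with bars of 1 standard error from limma over 6 rats a diet. Red points passed an adjusted p of 0.05 as higher (Gsta3 2.80, Ugt2a3 0.87, Ugt1a6 0.45), blue points as lower (Sult4a1 -3.45, Gstm7 -0.76, Gstk1 -0.51), and grey points did not pass.

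The promoters of the genes that changed are shown because the known regulators of these families act on short DNA elements. Elements outside the windows below were not searched. RefSeq windows of 300 bases, 250 before to 50 after the gene's start on GRCr8, were given for 47 of the 53 genes and for 5 of the 6 that changed. Each is written 5′ to 3′ on the gene's strand, and the capitals mark a match to one of the 5 motifs searched on both strands. Gsta3 lies at chr9:31154739-31155038 on the plus strand, Ugt1a6 at chr9:96194768-96195067 on the plus strand, Ugt2a3 at chr14:20851720-20852019 on the plus strand, Gstm7 at chr2:198260270-198260569 on the minus strand and Gstk1 at chr4:72085364-72085663 on the plus strand.
Gsta3: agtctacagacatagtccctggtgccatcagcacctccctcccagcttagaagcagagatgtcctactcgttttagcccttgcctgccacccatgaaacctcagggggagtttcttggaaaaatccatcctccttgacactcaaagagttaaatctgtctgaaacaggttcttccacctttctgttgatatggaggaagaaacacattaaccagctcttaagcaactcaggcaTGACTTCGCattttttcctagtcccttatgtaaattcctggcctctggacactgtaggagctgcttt
Ugt1a6: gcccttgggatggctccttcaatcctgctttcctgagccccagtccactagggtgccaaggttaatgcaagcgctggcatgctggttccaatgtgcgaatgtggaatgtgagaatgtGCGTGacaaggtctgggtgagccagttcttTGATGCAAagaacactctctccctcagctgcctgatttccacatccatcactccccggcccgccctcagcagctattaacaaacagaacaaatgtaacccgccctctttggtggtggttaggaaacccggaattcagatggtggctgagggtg
Ugt2a3: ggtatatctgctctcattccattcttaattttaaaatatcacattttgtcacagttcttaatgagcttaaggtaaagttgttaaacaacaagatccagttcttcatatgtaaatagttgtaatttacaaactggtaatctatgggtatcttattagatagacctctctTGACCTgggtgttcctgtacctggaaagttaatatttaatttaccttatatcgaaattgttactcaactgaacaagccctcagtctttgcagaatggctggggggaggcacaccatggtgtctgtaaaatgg
Gstm7: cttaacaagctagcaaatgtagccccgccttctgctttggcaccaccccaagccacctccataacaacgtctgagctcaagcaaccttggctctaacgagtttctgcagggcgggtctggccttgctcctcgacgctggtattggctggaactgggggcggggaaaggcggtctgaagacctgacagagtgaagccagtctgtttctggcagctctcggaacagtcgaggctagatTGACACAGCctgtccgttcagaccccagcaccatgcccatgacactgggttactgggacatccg
Gstk1: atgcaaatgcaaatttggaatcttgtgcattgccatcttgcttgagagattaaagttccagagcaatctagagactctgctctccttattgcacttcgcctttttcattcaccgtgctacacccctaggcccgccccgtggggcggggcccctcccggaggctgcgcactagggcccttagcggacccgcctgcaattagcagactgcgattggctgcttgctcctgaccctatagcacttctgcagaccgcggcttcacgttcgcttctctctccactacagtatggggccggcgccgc

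The antioxidant response element, the NRF2 motif searched as TGACNNNGC, stood at position -17 of Gsta3 and -14 of Gstm7, genes that changed in opposite directions. It was in 6 of the 47 members' windows (Gsta1, Gsta2, Gsta3, Gstm5, Gstm7 and Gstp1) and in 12.1% of all 33469 windows. The core of the AHR motif, GCGTG, stood at position -133 of Ugt1a6, and was in 13 members' windows and 29.7% of all windows. The same window held the C/EBP-ATF core TGATGNAA at position -103, found in 2 members' windows (Ugt1a6 and Ugt2b35) and 3.98% of all windows. The nuclear receptor half-site AGGTCA stood on the other strand at position -82 of Ugt2a3, and was in 6 members' windows and 16.2% of all windows. The HNF1 site was in the windows of Sult2a2 and Sult2a6 among the members and in 0.335% of all windows. None of the 5 motifs was in the window of Gstk1. No 2 of the printed matches overlapped. A match describes these letters only, since no measurement of binding was used here.

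Among the alpha class glutathione transferases, Gsta3 rose in low protein livers. Gsta3, also named Yc2, is the inducible rat subunit known for conjugating the epoxide of the mould toxin aflatoxin. Its lowest, median and highest scaled intensity were 33.0, 207 and 599 in low protein rats, against 13.8, 23.0 and 70.1 in control rats. The diets overlapped: low protein rats 3 and 5 were lowest in their group and lay below control rat 1, which stood above the other 5 control rats. The log2 difference was 2.80 ± 0.66 (SE, limma adjusted p = 0.0261), a fold of 6.96. Slide 1 gave 2.66 and slide 2 gave 3.08. Background handling changed its size: the difference was 1.60 after normexp correction and 2.08 in the deposited median intensities scaled in the same way, with an adjusted p of 0.0297 and 0.0242. The adjusted p was 0.0503 to 0.0558 without any one of low protein rats 2 and 6 and control rats 2, 3, 5 and 6, with differences between 2.53 and 2.80.

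The other 5 tested alpha class genes did not pass the test. Gsta4, which conjugates the lipid peroxidation product 4-hydroxynonenal, had scaled intensities of 6689, 7869 and 9146 in low protein rats, against 8357, 9735 and 10330 in control rats. Its difference was -0.28 ± 0.09 (SE, adjusted p = 0.0866), and the upper low protein rats overlapped the lower control rats. The abundant liver subunits stayed near 0. Gsta1, also named Yc1, had a difference of 0.13 with a 95% interval from -0.10 to 0.36. Gsta5 had 0.17 with an interval from -0.11 to 0.44, and Gsta2 had 0.17 with an interval from -0.15 to 0.48. Gsta6 had -0.48 with an adjusted p of 0.288.

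Gstk1 fell to a scaled intensity of 7918, 9391 and 11930 (lowest, median, highest) in low protein livers, against 12370, 13580 and 15350 in control livers. It encodes the kappa class transferase of mitochondria and peroxisomes. All 6 low protein rats lay below all 6 control rats, and Gstk1 was the only one of the 46 genes whose diets did not overlap, against 4.99% of all genes. The difference was -0.51 ± 0.12 (SE, adjusted p = 0.0214), or 1.43-fold lower. Slide 1 gave -0.41 and slide 2 gave -0.72. Without scaling between arrays, where 5 members and 4.08% of all genes passed, it was -0.38 with an adjusted p of 0.0809, and without control rat 3 it was -0.48 with an adjusted p of 0.0557.

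All 8 mu class genes were tested, and Gstm7 was the only one of them to pass. Its scaled intensity was 1037, 1243 and 2383 in low protein rats, against 1762, 2358 and 2875 in control rats. Low protein rat 1 lay among the control rats, while the other 5 low protein rats lay below every control rat. The difference was -0.76 ± 0.21 (SE, adjusted p = 0.0446), and the slides gave -0.53 and -1.22. It was close to the threshold: without any one of low protein rats 2 to 6 or control rats 1, 2, 3, 4 and 6 the adjusted p was 0.051 to 0.0921, with differences between -0.83 and -0.68.

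Gstm2, Gstm6 and Gstm6l had an unadjusted p under 0.05 and did not pass the adjusted test, and like Gstm7 they had lower means in low protein livers. Mu class enzymes conjugate quinones, aromatic epoxides and other electrophiles. Gstm2 had 5560, 7329 and 9765 in low protein rats, against 7949, 10260 and 13340 in control rats, a difference of -0.44 (adjusted p = 0.148). Gstm6l had 38.4, 56.7 and 82.0 in low protein rats, against 56.8, 78.2 and 93.8 in control rats, a difference of -0.48 (adjusted p = 0.176). Gstm6 had 17.2, 23.9 and 29.9 in low protein rats, against 21.5, 30.1 and 34.1 in control rats, a difference of -0.34 (adjusted p = 0.194). The ranges of both diets overlapped in each of these 3 genes. On the probes used, Gstm1, Gstm3, Gstm4 and Gstm5 lay between -0.15 and 0.22. The dimmer probe of Gstm3 gave -0.75 ± 0.44 (SE, limma adjusted p = 0.353 over all probes kept). Gstm1 had 0.17 with a 95% interval from -0.18 to 0.53. The mu class median was -0.24.

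None of the omega, pi and theta class genes passed the test. Gstt2, a theta class transferase acting on small electrophiles and sulfate esters, had 7952, 8333 and 10030 in low protein rats, against 5873, 6788 and 8196 in control rats. The difference was 0.30 ± 0.10 (SE, adjusted p = 0.0906), and the highest control rats reached into the low protein range. Gsto1, which reduces dehydroascorbate and methylated arsenic rather than forming conjugates, had 5789, 7061 and 7869 in low protein rats, against 5234, 6045 and 6451 in control rats, a difference of 0.24 (adjusted p = 0.124). Gstp1, the pi class gene long used as a marker of preneoplastic foci in rat liver, had a difference of 0.16 with a 95% interval from -0.04 to 0.35. The other pi class gene, Gstp3, had -0.31 (adjusted p = 0.246), Gsto2 had -0.28 (adjusted p = 0.25) and Gstt1 had 0.17 (adjusted p = 0.605).

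The 3 microsomal transferases, membrane proteins of an unrelated fold that also reduce lipid hydroperoxides, were all measured and none passed. Mgst1 had 40060, 42590 and 54120 in low protein rats, against 46510, 48130 and 49760 in control rats. Its low protein rats spread wider than its control rats and overlapped them, and the difference was -0.12 with a 95% interval from -0.30 to 0.06. Mgst3 had -0.20 (adjusted p = 0.293) and Mgst2 had 0.18 (adjusted p = 0.407).

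**Figure D2:**
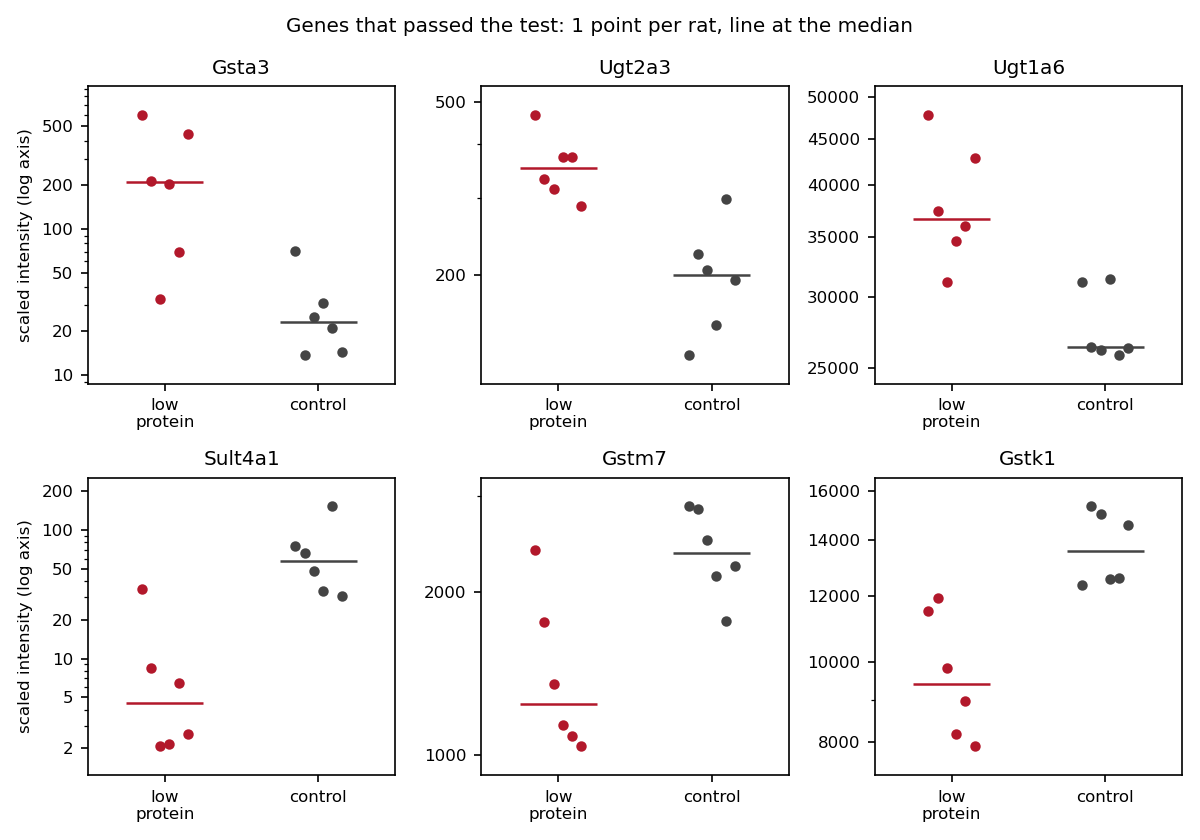
Scaled intensity on a log axis, 1 point per rat with a line at the median, low protein left of control, for the 6 genes that passed. Gsta3, Ugt2a3 and Ugt1a6 in the upper row are higher in low protein rats, and Sult4a1, Gstm7 and Gstk1 in the lower row are lower, with no overlap of the diets for Gstk1 only.

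Of the 11 tested glucuronosyltransferases 2 rose and none fell, with a family median of 0.00. Ugt2a3, whose human counterpart conjugates bile acids, had 288, 353 and 467 in low protein rats, against 131, 199.6 and 299 in control rats. Control rat 5 alone lay within the low protein range. The difference was 0.87 ± 0.18 (SE, adjusted p = 0.0156), a fold of 1.82, and the slides gave 0.89 and 0.83. It kept an adjusted p between 0.00662 and 0.0361 when any one rat was left out.

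Ugt1a6, the isoform for small planar phenols and a known AHR target, was read by a pair of probes that both rose but by different amounts. The brighter probe, printed in 10 spots and used for the gene, had 31160, 36680 and 47830 in low protein rats, against 25880, 26370 and 31410 in control rats. Low protein rat 3 lay just below control rats 1 and 4, and all other low protein rats lay above every control rat. The difference was 0.45 ± 0.11 (SE, adjusted p = 0.0274), and each slide alone gave 0.45. Its adjusted p was 0.0514 to 0.0666 without any one of low protein rats 2 and 6 and control rats 2, 3, 5 and 6, with differences between 0.41 and 0.45.

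The dimmer probe, a single spot that was well above background on all 12 arrays, had 137, 283 and 378 in low protein rats, against 54.4, 63.3 and 103.5 in control rats. All 6 low protein rats lay above all 6 control rats on it. Its difference was 1.91 ± 0.25 (SE, limma adjusted p = 0.00105 over all probes kept), a call made for 6.69% of those probes. The difference of the dimmer probe exceeded that of the brighter one by 1.46. In an exact two-sided permutation test over the rats this gave p = 0.00216, the smallest that 924 splits allow, and an adjusted p of 0.0389 over the 18 probe pairs compared. This test was chosen after the values were seen. The mean of both probes gave a difference of 1.18 for the gene, with an adjusted p of 0.00193. Each of the probes carries the name of a different RefSeq transcript, and both names were matched to Ugt1a6. Ugt1a genes share their later exons and differ in the first, and where either probe lies is not given in the sources used here. The part of this in the gap between the probes was not tested.

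**Figure D3:**
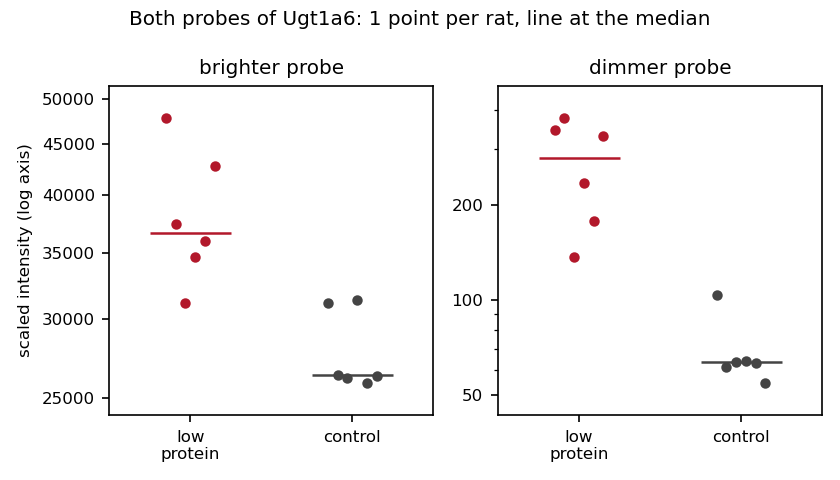
Scaled intensity on log axes of the brighter and the dimmer probe of Ugt1a6, 1 point per rat with a line at the median, low protein left of control. The low protein medians are 36680 and 283, the control medians 26370 and 63.3, and the diets overlap on the brighter probe only.

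The other Ugt1 gene tested, Ugt1a9, had 19.0, 23.5 and 32.5 in low protein rats, against 14.4, 20.03 and 26.6 in control rats, a difference of 0.32 (adjusted p = 0.264) with wide overlap. Ugt2b1, a major rat enzyme for bulky phenols and steroids, had 1154, 1548 and 3293 in low protein rats, against 1489, 3233 and 7159 in control rats. The ranges overlapped, with control rat 1 far above the rest. The difference was -0.92 ± 0.36 (SE, adjusted p = 0.157), and the slides gave -0.93 and -0.89.

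Several of the glucuronosyltransferases gave narrow intervals around 0. Ugt2b15, which conjugates androgens, had 54860, 57280 and 63410 in low protein rats, against 52600, 58350 and 64650 in control rats, and the ranges almost coincided. The difference was -0.01 with a 95% interval from -0.17 to 0.15, and its second probe gave 0.06. Ugt2b37 had 0.00 with an interval from -0.14 to 0.14. Both signs turned positive without scaling, where the median of all genes was 0.11. Ugt2b, also named Ugt2b2 and known for conjugating androsterone, could not be given a direction. Its brightest probe gave 0.19 (adjusted p = 0.18), and its other probes gave -0.24 and -0.26. The probe at -0.26 was dim, with medians of 10.95 in low protein and 11.87 in control rats. It was well above background on 4 low protein and 6 control arrays. On the probes used, the remaining tested genes, Ugt2a1, Ugt2b10, Ugt2b34l1 and Ugt2b35, lay between -0.29 and 0.11. The dimmer probe of Ugt2b35 gave 0.23 (limma adjusted p = 0.171 over all probes kept).

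Among the 11 tested sulfotransferases Sult4a1 alone passed, with a signal that was mostly near background in low protein livers. Sult4a1 is a sulfotransferase-like protein of brain for which no substrate is established. Its scaled intensity was 2.08, 4.50 and 34.6 in low protein rats, against 30.4, 56.9 and 152.9 in control rats. It was well above background on 1 of 6 low protein arrays and on 6 of 6 control arrays, and low protein rat 1 was the one rat that reached the control range. The difference was -3.45 ± 0.66 (SE, adjusted p = 0.00938), and the slides gave -3.41 and -3.53. Because the low protein values are mostly not above background, the size is not well measured: after normexp it was -0.93 and in the scaled deposited intensities -1.45, with an adjusted p of 0.0148 and 0.00996. It passed without any one rat, with differences from -3.99 to -3.17.

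Sult1a1, the main phenol sulfotransferase of liver, had 40760, 50080 and 62260 in low protein rats, against 46040, 52320 and 67430 in control rats. The diets overlapped throughout, and the difference was -0.13 with a 95% interval from -0.38 to 0.13. Sult1b1, known for sulfating thyroid hormones and dopamine, had 42620, 46390 and 53160 in low protein rats, against 31710, 40900 and 47860 in control rats, a difference of 0.26 (adjusted p = 0.165). Sult1c3, also named Sult1c1, had -0.03 with an interval from -0.18 to 0.13, and its sign turned without scaling (0.11). Sult1c2 had 0.18 with an interval from -0.23 to 0.58. The 3 probes of Sult1c2a disagreed in sign, with -0.14, -0.17 and 0.05, and none passed.

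The Sult2 genes sulfate hydroxysteroids and bile acids, and their rats varied widely within a diet. Sult2a1 had 10270, 15680 and 29380 in low protein rats, against 15120, 17180 and 23670 in control rats. The low protein rats lay on both sides of the control range, and the difference was -0.12 with a 95% interval from -0.64 to 0.41. Sult2a2 had 37.8, 63.8 and 83.1 in low protein rats, against 54.2, 84.1 and 132 in control rats, a difference of -0.52 (adjusted p = 0.221). Sult2a6 had 0.11 with an interval from -0.35 to 0.58. Sult2b1, which sulfates cholesterol and pregnenolone, had 10.7, 17.9 and 46.3 in low protein rats, against 5.40, 11.7 and 16.3 in control rats. It was well above background on 6 low protein and 4 control arrays, so it entered the test only through the low protein diet. Its difference was 0.91 ± 0.37 (SE, adjusted p = 0.171). Sult5a1 had -0.13 with an adjusted p of 0.733.

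Another 7 members were not well above background in enough arrays to be tested, with at most 2 of 6 arrays of a diet on any of their probes. They were Gsta4l1, Gstt4, Sult1d1, Sult6b1, Ugt1a8, Ugt2b7 and Ugt8, the last of which makes the galactolipids of myelin. No fold is given for them. Many members are close paralogs, and how far a probe also reads a neighbour was not tested. The within-diet SD of the 46 tested genes had a median of 0.27 on the log2 scale, against 0.22 for all genes tested, and was largest for Gsta3 and Sult4a1 at 1.28 and 1.27.

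The genes around the conjugation reactions were counted in lists. Of all genes tested, 3.48% were higher and 3.05% lower, and 21.6% had an unadjusted p under 0.05 in limma. Glutathione supply and use had 4 of its 11 tested genes higher and none lower, with a median of 0.39. The 4 were the cystine importer Slc7a11 (3.78 ± 0.43, adjusted p = 0.000391), both subunits of glutamate-cysteine ligase, Gclm (1.00 ± 0.15, adjusted p = 0.00272) and Gclc (0.74 ± 0.16, adjusted p = 0.0173), and glutathione synthetase, Gss (0.71 ± 0.19, adjusted p = 0.0383). Gclm had 153.5, 202 and 278 in low protein rats, against 77.9, 96.2 and 122 in control rats, with no overlap. Slc7a11 was well above background on all 6 low protein arrays and 3 control arrays, so it entered the test only through the low protein diet and the size of its difference is not well measured. It was 1.34 after normexp and 2.04 in the scaled deposited intensities, with an adjusted p of 0.00267 and 0.000707. Leaving it aside, 3 of the other 10 tested genes of the list were higher. The steps that turn conjugates into mercapturates had 0 higher and 1 lower of 6, the aminoacylase Acy3 (-0.38, adjusted p = 0.0428). Of 8 relatives of the transferases outside the symbol rule, the chloride channel protein Clic4 was higher (0.48, adjusted p = 0.0248) and the leukotriene C4 synthase Ltc4s lower (-1.40, adjusted p = 0.0338).

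Supply of UDP-glucuronic acid had 1 higher and 0 lower of 13, Ugp2, which makes UDP-glucose (0.64, adjusted p = 0.046). The adjusted p of Ugp2 was 0.0553 with slide as a block and up to 0.099 with 1 rat left out. Supply of PAPS and sulfate had 2 higher and 1 lower of 12. The sulfate carrier Slc26a1 (0.45, adjusted p = 0.0113) and the sulfatase Arsa (0.41, adjusted p = 0.00422) were higher, and the sulfite oxidase Suox was lower (-0.64, adjusted p = 0.00104). Conjugation by acetyl, methyl and glycine transfer had 3 higher and 1 lower of 15. The acyl-CoA synthetases Acsm5 (3.46 ± 0.87, adjusted p = 0.0343) and Acsm2 (1.30, adjusted p = 0.0182) and the glycine transferase relative Glyatl2 (0.69, adjusted p = 0.0269) were higher. Acsm5 had 994, 2796 and 4008 in low protein rats, against 50.2, 108 and 2310 in control rats. Control rat 1 lay within its low protein range, and control rat 4 had 846. None of the 12 exporters and importers of conjugates passed, and 2 of them, Abcc6 (-0.27) and Abcg2 (-0.42), had an unadjusted p under 0.05 in limma.

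**Figure D4:**
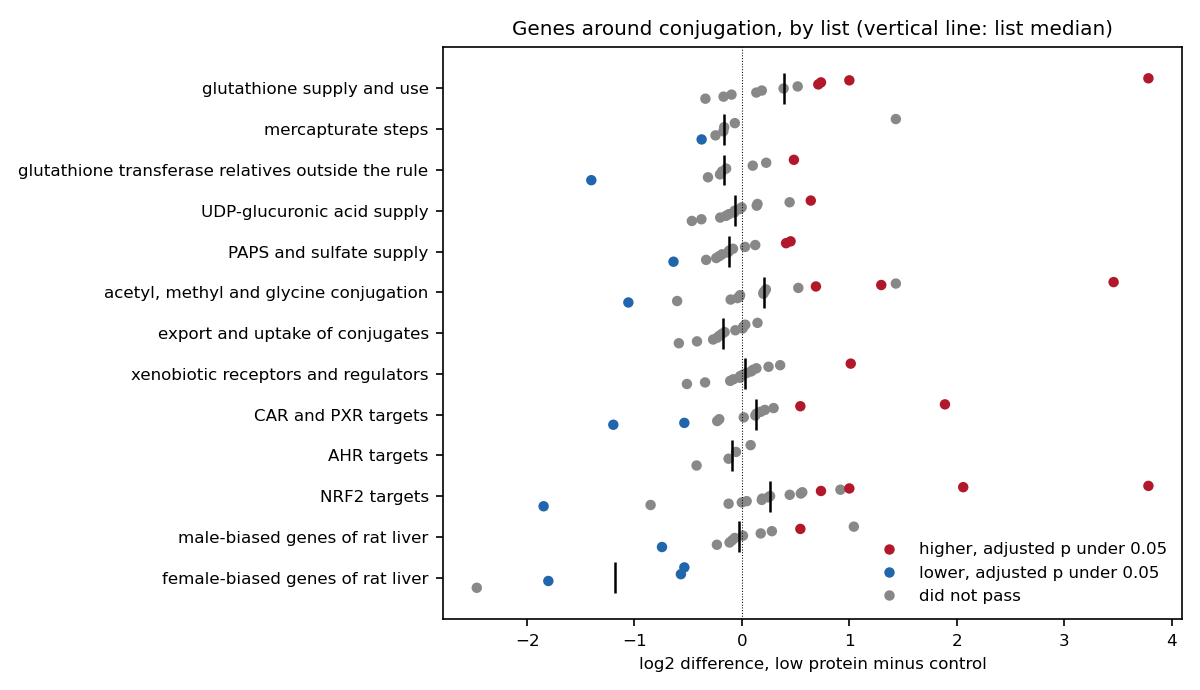
Log2 difference, low protein minus control, of every tested gene in the 13 lists around conjugation, 1 row per list, with a black line at the list's median and red, blue and grey points for higher, lower and not passed. The medians lie between -0.17 and 0.39 except in the female-biased list at -1.19.

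Among 14 xenobiotic receptors and regulators, Nr1i3, which encodes CAR, was the only one to pass. It had 1334, 2291 and 2521 in low protein rats, against 717, 1180 and 1336 in control rats, and low protein rat 3 lay just inside the control range. The difference was 1.01 ± 0.20 (SE, adjusted p = 0.0101). Ahr had -0.51 (adjusted p = 0.396). Nfe2l2, which encodes NRF2, had 0.01 with a 95% interval from -0.51 to 0.53, and Nr1i2, which encodes PXR, had 0.04 with an interval from -0.34 to 0.43, so neither has a direction here. The known CAR and PXR targets moved both ways, with 2 higher and 2 lower of 12: Aldh1a1 (1.89, adjusted p = 0.00676) and Cyp3a2 (0.54, adjusted p = 0.0309) were higher, and Cyp2a1 (-0.54, adjusted p = 0.00113) and Cyp3a9 (-1.20, adjusted p = 0.0271) lower. None of 4 AHR targets passed in limma and none had an unadjusted p under 0.05, with Cyp1a2 at -0.42 and Nqo1 at -0.12.

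The NRF2 target list had 4 higher and 1 lower of 17, against 3.48% higher and 3.05% lower of all genes, with a median of 0.26. Beside Slc7a11, Gclm and Gclc, which it shares with the glutathione list, Akr7a3 was higher. Slc7a11 entered the test only through the low protein diet, so its call is not support for a change in this list. Akr7a3 encodes the rat aflatoxin aldehyde reductase and had 4635, 12530 and 17880 in low protein rats, against 1851, 2090 and 5387 in control rats. Control rat 1 lay within the low protein range, and the difference was 2.06 ± 0.35 (SE, adjusted p = 0.00513). Some conjugation genes of rat liver differ by sex. The female-biased list had 0 higher and 3 lower of 4, namely Cyp2c12 (-1.80, adjusted p = 0.0325), Cyp2c7 (-0.57, adjusted p = 0.0155) and Cyp2a1. The male-biased list had 1 higher, Cyp3a2, and 1 lower of 10, Cyp2a2 (-0.74, adjusted p = 8.0e-05).

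All 12 arrays carried the hepatocyte markers, with 7 of 7 tested and a summed scaled intensity of 666700 to 868200 in low protein rats and 781000 to 913400 in control rats. Of these, Apoa1 (-0.84) and Cps1 (-0.68) were lower. The periportal list had 4 of 7 lower and none higher, where 3.05% of all genes were lower: Sds (-5.19), Ass1 (-0.95), Gls2 (-0.79) and Hal (-0.50). Its other markers, Pck1 (-0.81), Cyp2f4 (-0.22) and Arg1 (-0.14), did not pass. The sum of the list was 130200 to 159600 in low protein rats and 182000 to 254100 in control rats. The pericentral list had Oat lower (-2.19) and none higher of 6, with a sum of 64330 to 106600 in low protein rats and 84060 to 124300 in control rats. Its other markers, Rhbg (0.56), Cyp1a2 (-0.42), Glul (0.305), Slc1a2 (-0.21) and Cyp2e1 (0.08), did not pass. None of the 9 Kupffer cell and macrophage markers passed. Of them 7 had an unadjusted p under 0.05 in limma, all lower, against 21.6% of all genes in either direction. Their sum over the 9 was 27420 to 36720 in low protein rats and 27230 to 53030 in control rats. In bulk liver RNA, fewer cells of a type and less RNA per cell cannot be told apart. The part of these marker differences in the results for the conjugation genes was not tested. No marker of bile duct, stellate, endothelial, lymphoid, neutrophil, red blood or pancreatic cells passed in limma, where 6 had an unadjusted p under 0.05. These were 2 of 7 bile duct, 1 of 7 stellate, 1 of 6 endothelial, 1 of 2 neutrophil and 1 of 3 pancreatic markers tested. The lymphoid and red blood lists had 0 of 4 and 0 of 5, and the share of all genes was 21.6%. Of 5 adipocyte markers 2 were tested: Cidec was higher (0.74), and Fabp4 did not pass (0.53, adjusted p = 0.516).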

How the data were processed

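RNA of 12 rat livers, 1 array per rat, was measured. Per the file headers, the authors' intensity values came from Agilent Feature Extraction 12.0.3.1, with background subtraction and detrending within an array and no scaling between arrays. The deposited value table equals the median intensity at 100% of spots. Each array had 58717 spots that were not controls. Between 61.2% and 70.0% of them stood well above background on an array, and 0 were saturated. The number of arrays limits the precision.

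Probes carry no gene name. Of 45598, 21215 (46.5%) were named through unversioned RefSeq accessions in a GRCr8 table. The headers name another build, so no probe position is given. The processed signal was divided by each array's 75th percentile (942 to 1317) and taken to log2, with outlier spots missing. Scaled intensities are these values times 1107. The probe with the highest mean stood for a gene. Two-sided tests were made by limma 3.58.1 (lmFit, then eBayes) under R 4.3.3, and p-values were adjusted by Benjamini and Hochberg's method across every gene tested. Every adjusted p is limma's unless another test is named. The fit was tested on simulated data. Python 3.11.15, pandas 2.3.3 and matplotlib 3.10.9 made the figures.

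The members, lists and alternatives were chosen with earlier results of these data known. Named were members that passed, those at an unadjusted p under 0.05, the 2 brightest of each family, those whose probes disagreed or whose diets did not overlap, and per list up to 4 genes that passed or 2 with the smallest p. Sums were taken over cell type markers. Of the list genes that passed, 2 are counted but not reported here by name. Gsta2, Gsta6, Mgst2, Gstm3, Gstm4, Gstm5, Sult1c2, Sult1c3, Ugt2a1, Ugt2b10, Ugt2b34l1, Ugt2b35, Nfe2l2, Ahr and Nr1i2 were added after their values were seen. There is no mean signal column, so normexp used the median. Slide and scan coincide: slide 1 holds 4 arrays of each diet and slide 2 holds 2. Place within a slide goes with diet. Row 1 of slide 1 held only control rats, and row 2 only low protein rats. Slide 2 used row 1 alone, where columns 1 and 2 were control and columns 3 and 4 low protein. Comparisons within a slide therefore do not separate diet from place, and an effect of place was not tested. The alternatives covered background, scaling, deposited values, filter, outliers, probes, spread estimate, slide, rat number, each rat left out and stricter thresholds.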

Additional observations from a re-analysis of the deposited data

Results flagged for a closer look

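Among 92 groups (46 genes, both diets), 3 held 1 rat apart from the rest. Its gap to the nearest other rat was a large share of the group's range, by Dixon's criterion, while chance marks about 1 in 20 groups. The groups had 6 measured rats, except Ugt2b10 in low protein rats with 5. For Gstt2, low protein rat 1 was highest at 10030, against 8556 for the next, a share of 0.685. For Sult1c3, low protein rat 4 was lowest at 37500, against 42970 for the next, a share of 0.70. For Gstt1, control rat 1 was highest at 1991, against 1449 for the next, a share of 0.676. None of these 3 genes passed the diet test.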

How the results depend on the processing

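The 6 genes that passed kept their direction under all 28 alternatives that tested them (27 for Sult4a1). The number that passed was 5 without scaling (4.08% of all genes) and under the stricter background filter (7.43%). It was 7 after quantile normalization (7.53% of all genes), with a trended and robust spread (8.02%) and in the unscaled deposited values (5.87%). It was 6 after median centring (6.78% of all genes), after normexp (7.37%), in the scaled deposited values (7.14%) and with outliers kept (6.53%). With probes averaged (6.67%), with array weights (7.93%) and with slide as a block (6.82%) it was also 6. It was 2 without the filter on dim probes (1 higher, 1 lower), where 618 of 39002 genes passed and Gsta3, Gstk1, Gstm7 and Ugt1a6 had an adjusted p of 0.0662 to 0.113, 1 at an adjusted p of 0.01 (0 higher, 1 lower), and 0 within slide 1 or slide 2 alone, where 164 and 12 of all genes passed. With 1 rat left out it was 2 to 6, with 1 to 3 higher and 1 to 3 lower, where 3.92% to 5.98% of all genes passed. Both the number and the share were lowest without control rat 3. With the rat number as a replicate block, 9 passed, 5 of them lower, where 6.46% of all genes passed. The 9 were the 6 and Gstm2, Gstm6 and Ugt1a9, the block changing no other member's call. Same-numbered rats correlated at 0.034 to 0.261, and 2 of 6 matched their own number best, so the numbers were not taken as pairs. Some list genes that passed lost the call with 1 rat left out. Their adjusted p reached 0.099 for Ugp2, 0.0972 for Acy3, 0.0811 for Gss, 0.0764 for Acsm5 and 0.0724 for Ltc4s. It reached 0.0673 for Cyp2c12, 0.0633 for Cyp3a2, 0.0581 for Cyp3a9, 0.057 for Glyatl2, 0.0561 for Hal and 0.0536 for Clic4. Without scaling the median of all genes was 0.11, against -0.03, and 76.2% of calls were higher, against 53.3%; in the unscaled deposited values these were 0.10 and 81.1%. Some signs turned. Without scaling, Mgst1 (0.014), Nqo1 (0.009), Sult1a1 (0.003), Sult1c3 (0.107), Ugt2b10 (0.072), Sult2a1 (0.013), Sult5a1 (0.008), Ugt2b15 (0.12) and Ugt2b37 (0.13) turned positive. So did Nqo1 (0.024), Sult1c2a (0.030), Sult1c3 (0.110), Ugt2b10 (0.107), Sult2a1 (0.001), Sult5a1 (0.029), Ugt2b15 (0.088) and Ugt2b37 (0.15) in the unscaled deposited values. Ugt2b15 (0.009) and Ugt2b37 (0.014) turned after median centring, and Ugt2b37 after normexp (0.018) and in the scaled deposited values (0.015). Nfe2l2 (-0.027) and Nr1i2 (-0.047) turned after quantile normalization, Nfe2l2 with array weights (-0.022) and Ugt2b10 with outlier spots kept (0.165). With probes averaged Ugt2b was -0.10 and Ugt2b15 0.027. Nqo1 (0.035), Nr1i2 (-0.124), Ugt2b10 (0.062), Ugt2b15 (0.053) and Ugt2b37 (0.036) turned on slide 1, and Nfe2l2 (-0.129), Gsta1 (-0.014), Gstm1 (-0.064), Sult2a1 (0.16) and Sult5a1 (0.081) on slide 2. With 1 rat left out, Nqo1 ran from -0.25 to 0.014, Sult2a1 from -0.28 to 0.020, Sult2a6 from -0.052 to 0.22, Nfe2l2 from -0.129 to 0.133, Nr1i2 from -0.071 to 0.115, Sult1c3 from -0.051 to 0.014, Ugt2b10 from -0.21 to 0.061, Ugt2b15 from -0.040 to 0.020 and Ugt2b37 from -0.027 to 0.022. The cause was not tested.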

Other observations

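The same rats stood at the ends of the range in several genes, a pattern seen after the values and not tested. The first 3 given here are genes that rose. On the dimmer probe of Ugt1a6, the phenol glucuronosyltransferase, low protein rats 3 and 5 had 137 and 178, and the other low protein rats had 235 to 378. In Gsta3 low protein rats 3 and 5 had 33.0 and 69.8, and the others had 202 to 599. In Akr7a3, the aflatoxin aldehyde reductase, low protein rats 3 and 5 had 4635 and 6493, and the others had 11430 to 17880. In all 3, control rat 1 was the highest control rat, with 103.5 on the dimmer probe of Ugt1a6, 70.1 in Gsta3 and 5387 in Akr7a3, where the other control rats had at most 63.8, 31.2 and 2549. The brighter probe of Ugt1a6 did not share the whole pattern. On it low protein rat 5 (35970) lay above rat 4 (34650), and control rat 4 (31410) was the highest control rat. Ugt2a3, which also rose, did not share it: control rat 1 was the lowest control rat (131), and low protein rat 6 was lowest in its group (288). In Ugp2, which rose as well, low protein rats 3 and 5 were lowest (17720 and 20270) and control rat 1 was the highest control rat (21060). Gstt1, Ephx1 and Gsr did not pass and had the same rats at the same ends, so the pattern was not confined to genes that rose.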
